A study of Mus musculus with 22 samples.

Results

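The genes described here are 10 imprinted genes of the mouse, Usp29, Peg3, H19, Igf2, Dlk1, Meg3, Cdkn1c, Plagl1, Mest and Grb10, measured in hearts that lack or retain Ronin (Thap11), a zinc-finger transcriptional regulator. They were picked by gene symbol, out of 19057 genes with a probe of their own on the array. They were also selected on measured values of these hearts, namely the low Usp29 signal of the αMHC::Cre knockouts at E11.5 and the decline of the imprinted genes after birth, so those values are given as a description without a test. Of the 10 genes, 9 were represented by 23 probes, and H19 had none. Heart RNA was hybridized to 22 Illumina MouseWG-6 v2.0 arrays. Knockout hearts carried RoninloxP/loxP with a Cre driver and control hearts carried RoninloxP/+ with the same driver, so that the controls also carried Cre and 1 floxed allele. All mice were C57BL/6. Nkx2.5::Cre, which acts in cardiac progenitors, was used at E9.5 (2 knockout and 2 control arrays, each from 10 pooled hearts) and at E11.5 (3 and 3), and αMHC::Cre, which acts in cardiac myocytes, was used at E11.5, P0 and 6 weeks of age (2 and 2 at each age). Because whole hearts were measured, fewer cells of a type and less RNA per cell cannot be told apart.

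An imprinted gene is expressed mainly from the allele inherited from 1 parent. Many imprinted genes govern growth before birth: Igf2 encodes a paternally expressed growth factor, Cdkn1c encodes the cyclin-dependent kinase inhibitor p57Kip2 and is expressed from the maternal allele, Grb10 encodes an adaptor that restrains insulin and IGF receptor signaling, Dlk1 encodes a transmembrane protein of the Delta-like family, Mest encodes an α/β hydrolase, Plagl1 encodes a zinc-finger transcription factor, and H19 and Meg3 yield noncoding RNAs. Peg3 encodes a large zinc-finger protein, and Usp29, which encodes a ubiquitin-specific peptidase, starts next to it on the opposite strand. Several of these genes are co-expressed in embryonic tissues and are turned down in the weeks after birth, a group often called the imprinted gene network.

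The start of Usp29 is shown because Usp29 and Peg3 share it. In RefSeq (GRCm38.p6) the annotated starts of both genes lie 164 bases apart and point away from each other, and their promoter windows, most of which lies before a start, share 263 bases. The Usp29 window at chr7:6730333-6730632 is printed on the plus strand, 5′ to 3′, with the letters CCAAT and TGACGTCA in capitals.
Usp29: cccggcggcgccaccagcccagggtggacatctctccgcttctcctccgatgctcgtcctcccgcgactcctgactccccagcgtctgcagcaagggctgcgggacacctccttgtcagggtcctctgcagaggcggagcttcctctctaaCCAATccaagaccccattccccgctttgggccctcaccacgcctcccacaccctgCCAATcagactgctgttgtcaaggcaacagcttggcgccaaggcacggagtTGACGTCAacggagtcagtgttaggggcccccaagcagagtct
The 2 CCAAT matches begin 99 and 44 bases before the Usp29 start, and the TGACGTCA match, a cyclic AMP response element, begins 7 bases after it. On either strand, CCAAT occurred in 37.4% and TGACGTCA in 1.79% of 32851 RefSeq promoter windows of that length. The window held 17 CG dinucleotides, against a median of 7 over all windows. In the 15 windows annotated for 8 of the genes, neither Ronin motif of the study was found, nor was the first of them with 1 mismatch; these occurred in 0.91%, 2.27% and 4.52% of all windows. Such matches describe letters only and say nothing of binding.

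The labels were checked first. The titles and the methods gave αMHC::Cre for the later hearts, although the genotype field of those knockouts named Nkx2.5::Cre, and the titles were followed. The probe of Thap11, the deleted gene, gave mean intensities in knockouts that were 63.2% to 75.2% of those in controls in the 4 embryonic and newborn comparisons and 36.7% at 6 weeks, and no knockout array overlapped its controls. Cardiomyocyte markers were brighter than the median probe in every comparison (8 of the 8 with a probe). The groups were not matched for sex at E11.5, with either driver, or at P0. At E11.5 with αMHC::Cre both knockouts had Xist, the X-inactivation transcript of female cells, near background (49.9 and 54.9), and both controls had it high (1888 and 1989), while the Y-linked Eif2s3y was at 1114 and 1053 in knockouts and 51.2 and 53.1 in controls. In that comparison genotype and sex cannot be told apart.

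Usp29 was the gene from which the choice began, and its signal was low. On its brightest probe (ILMN_1229634) the αMHC::Cre knockouts at E11.5 had intensities of 87.9 and 81.5, against 197 and 200.03 in their controls, which is a fitted log2 fold change of -1.23. It was the 1 gene of 11910 tested that was called in this comparison (0.0084% of genes tested, at an adjusted p under 0.05), and it was taken up here for that reason. The control arrays were the ones that stood apart: over the other 20 arrays, knockouts and controls of every age, the same probe ranged between 58.6 and 121 with a median of 81.5. In the 2 controls it lay at percentiles 73.2 and 73.4 of all probes, and in the other 20 arrays at percentile 69.5 at most. After quantile normalization over all 22 arrays the fold change was -1.09 on the log2 scale. Markers of other cells also differed between these groups: the summed intensity of 7 endothelial markers was 10849.7 to 11129.9 in knockouts and 12182 to 12297 in controls, that of 9 mesenchymal markers 5712 to 6459 in knockouts and 6725 to 6951 in controls, that of 8 liver markers 887 to 955 in knockouts and 1028 to 1051 in controls, that of 5 neural markers 517 to 523 in knockouts and 487 to 492 in controls, and that of 7 erythroid markers 228733 to 256140 in knockouts and 208744 to 210087 in controls. Cardiomyocyte, macrophage, skeletal muscle, and lung and thymus sums overlapped. Of the 4 neural markers tested, 2 had a fold change above 0, with a median of 0.02 on the log2 scale. Separation was common among single genes, as both knockouts were lower for 17.8% and higher for 14.7% of the 11910 tested. The part of these markers in the Usp29 value was not tested.

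The other 2 Usp29 probes did not share the difference. At E11.5 with αMHC::Cre, ILMN_1223512 gave 59.5 and 55.1 in knockouts and 53.5 and 58.1 in controls, and ILMN_1253685 gave 56.7 and 51.1 in knockouts and 54.4 and 49.8 in controls. Both stayed below the median of all probes on every one of the 22 arrays (percentile 45.9 at most), so that the Usp29 result rests on 1 probe. When the log2 values of the 3 probes were averaged, the fold change was -0.38.

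Outside this comparison, Usp29 showed no knockout difference of one direction. In Nkx2.5::Cre hearts at E9.5 the brightest probe gave 90.9 and 81.6 in knockouts and 80.4 and 66.5 in controls, and the knockouts were the higher arrays, as for 15.9% of 11713 genes. At E11.5 it gave 60.8, 91.5 and 97.1 in knockouts and 106, 60.8 and 65.5 in controls, and the groups overlapped. In αMHC::Cre hearts it gave 83.8 and 121 in knockouts and 108 and 103 in controls at P0, and 64.7 and 68.1 in knockouts and 71.7 and 58.6 in controls at 6 weeks. At both ages these values were near or below the median of all probes (108 at P0 and 77.3 to 77.7 at 6 weeks). Arrays of both sexes occurred in other comparisons. At E11.5 with Nkx2.5::Cre, the 3 arrays with Xist above Eif2s3y had Usp29 at 60.8 in the knockout and 106 and 60.8 in the controls, and the 3 with Eif2s3y above Xist had 91.5 and 97.1 in the knockouts and 65.5 in the control. These values do not separate sex from genotype at E11.5 with αMHC::Cre, where the part of sex was not tested.

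**Figure D1:**
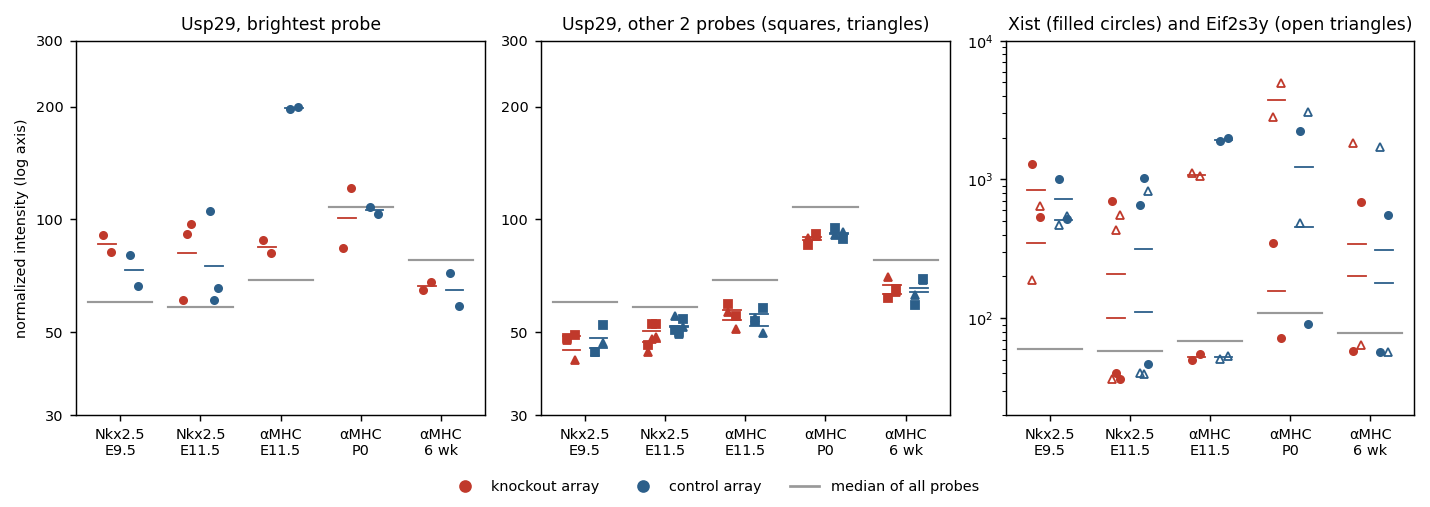
Normalized intensity on a log axis for the brightest Usp29 probe (left), the other 2 Usp29 probes (middle) and the sex markers Xist and Eif2s3y (right) in every array. Each point is an array, short bars are geometric means of a group, gray bars are the median of all probes, and in each pair of groups knockouts stand left of controls. The 2 αMHC::Cre controls at E11.5, at 197 and 200.03, lie above the other 20 arrays, and the same 2 arrays have Xist at 1888 and 1989.

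Peg3, the neighbor of Usp29, was bright in embryonic hearts, and its probes did not give 1 common picture. With αMHC::Cre at E11.5, the brightest probe (ILMN_1245246) gave 9002 and 9088 in knockouts and 10538 and 10603 in controls, with a fitted log2 fold change of -0.22 and no overlap. Both knockouts were lower for 17.8% and higher for 14.7% of the 11910 genes tested there. The second probe (ILMN_2677270) had the same order, at 823 and 764 in knockouts and 904 and 1032 in controls, whereas ILMN_1225513 overlapped, at 92.0 and 90.4 in knockouts and 82.3 and 101 in controls. At P0 the brightest probe gave 2115 and 1381 in knockouts and 2065 and 2534 in controls. The fold change there was -0.42, and it was -0.73 without knockout 1 and -0.11 without knockout 2.

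In Nkx2.5::Cre hearts at E11.5 the probes of Peg3 ran the other way. ILMN_2677270 gave 863, 938 and 1035 in knockouts and 781, 793 and 566 in controls, and ILMN_1225513 gave 118, 130.2 and 162 in knockouts and 105, 83.2 and 95.8 in controls. On both, every knockout was above every control, with log2 differences of 0.42 and 0.53. By the brightest probe of each gene this was so for 4.14% of 11827 genes, which is not a like share for dimmer probes. The ranges of the brightest probe overlapped, with 4231, 5052 and 3797 in knockouts and 3798, 4773 and 3439 in controls, and the knockout was the higher array within all 3 pairs of the same number (fold change 0.13 on the log2 scale). At E9.5 it gave 10634 and 8377 in knockouts and 11111 and 8076 in controls, and at 6 weeks 216 and 167 in knockouts and 201 and 180.5 in controls. ILMN_1225513 was higher in knockouts at E9.5 (183 to 225 against 163 to 172 in controls), as were 15.9% of 11713 genes by their brightest probes. At P0 it was lower in knockouts (95.8 to 120 against 123 to 134 in controls), as were 15.7% of 11779 genes. These P0 values were near the median of all probes (108). ILMN_2677270 overlapped at both ages, with log2 differences of -0.26 at E9.5 and -0.07 at P0. The dimmest probe (ILMN_1233819) stayed below the median of all probes on all arrays. The knockout values of Peg3 and Usp29 were part of what defined these genes and were not tested.

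**Figure D2:**
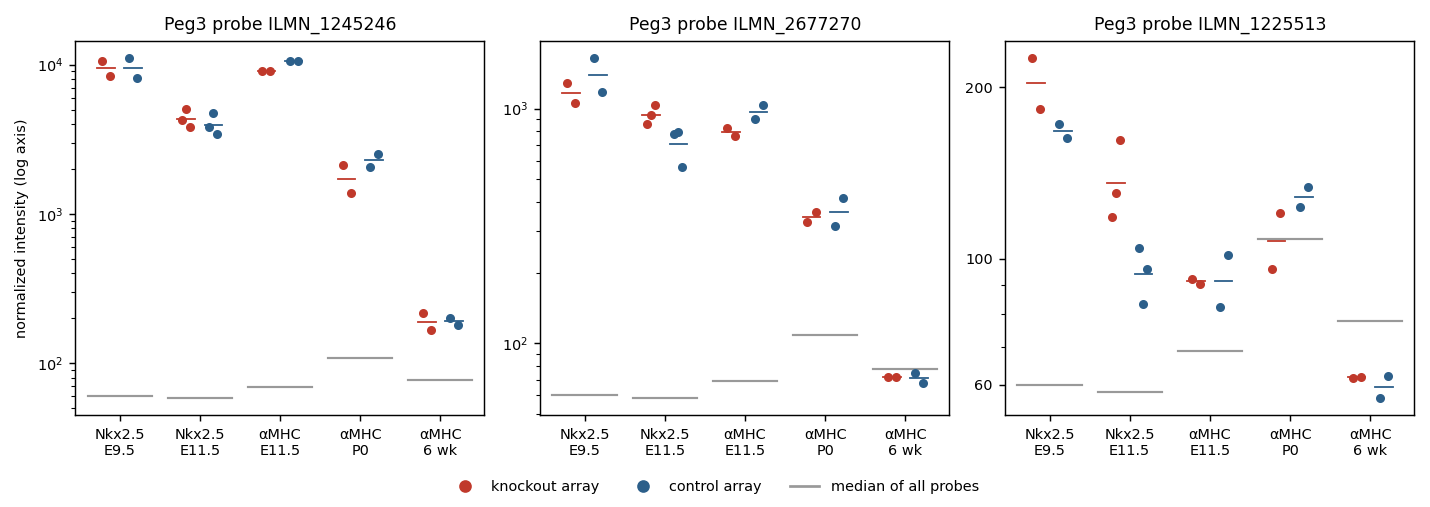
Normalized intensity on log axes for the 3 brightest Peg3 probes, in every array, with knockouts left of controls. At 6 weeks both dimmer probes of the 3 lie below the median of all probes. Short bars are geometric means of a group and gray bars are the median of all probes. In αMHC::Cre hearts at E11.5 the first 2 probes are lower in both knockouts, and in Nkx2.5::Cre hearts at E11.5 both dimmer probes are higher in all 3 knockouts.

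The genes with the pattern most like the brightest Usp29 probe were sought among 9896 genes tested in all 5 comparisons, by the Pearson correlation of log2 values centered within each comparison over 22 arrays. They were Phf19 (0.69), Rab23 (0.68), Arhgap35 (0.59), Pdk2 (0.58) and Ociad1 (0.58). Without the 4 αMHC::Cre arrays at E11.5, in which Usp29 was chosen, these correlations were 0.43, 0.56, 0.65, 0.57 and 0.35. Of the imprinted growth genes in this ranking, Peg3 had 0.12 (rank 2263), Mest and Grb10 had 0.02 each, Igf2 had -0.09 and Cdkn1c had -0.12. By the same measure Dlk1, Plagl1 and Meg3, which were not tested in all comparisons, had 0.19, -0.12 and -0.30. The arrays share their comparison and its normalization, so these values describe the arrays and no p is given.

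For the remaining 8 genes (H19, Igf2, Dlk1, Meg3, Cdkn1c, Plagl1, Mest and Grb10), the question was whether knockouts and controls of the same age differed in the 4 comparisons other than αMHC::Cre at E11.5. The decline with age in the P0 and 6-week hearts had a part in choosing these genes, and a difference between genotypes within an age was not a stated reason. Earlier results of these data were known at the choice, and the tests use the same arrays. That the choice was independent of these tests is therefore not shown. Fold changes and p values are from 1 limma fit over all 22 arrays, adjusted by Benjamini-Hochberg over every gene tested in a comparison, and testing was limited to genes brighter than the median probe in the comparison. A single value passed: Cdkn1c fell in αMHC::Cre knockouts at 6 weeks. The labels do not say that arrays of a group came from separate animals, so the p values measure the spread between these arrays.

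Cdkn1c, the cell-cycle inhibitor, had intensities of 835 and 1228 in knockouts and 2039 and 1687 in controls at 6 weeks. Both knockouts were below both controls, as was so for 17.9% of genes tested at this age, with a log2 fold change of -0.87 ± 0.18 (SE, adjusted p = 0.0143 by limma). It was 1 of the 4 genes of the 8 that could be tested at this age, while 1.77% of 11708 genes were called. At 6 weeks the arrays numbered 1 had Eif2s3y above Xist and those numbered 2 had Xist above Eif2s3y, in both genotypes. Cdkn1c was lower in the knockout by 1.29 on the log2 scale between the arrays numbered 1 and by 0.46 between those numbered 2. Summed cardiomyocyte markers were 183195 to 188090 in knockouts and 175963 to 181426 in controls. Of the 8 cardiomyocyte markers tested, however, 4 had a fold change above 0, and the median was -0.095 on the log2 scale. Summed neural markers (5 of 6 with a probe) were 514 to 612 in knockouts and 480.5 to 510.0 in controls, and 2 of the 3 tested had a fold change above 0. Sums of 6 lung and thymus markers, of which 2 were above the median of all probes, were 453 to 459.9 in knockouts and 441 to 449.9 in controls. Endothelial, mesenchymal, erythroid, macrophage, liver and skeletal muscle sums overlapped. The part of cell composition in the Cdkn1c value was not tested. The call depended on single arrays: the fold change was -0.74 without control 1 (adjusted p = 0.489) and -0.60 without knockout 1 (adjusted p = 0.256), and it passed without control 2 (-1.01, adjusted p = 0.0451) and without knockout 2 (-1.15, adjusted p = 0.00045). When the 4 arrays of this age were fitted alone, with 2 arrays a group, the adjusted p was 0.435 and no gene of the array was called.

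Igf2 at 6 weeks had a lower mean in knockouts without passing the test in the main fit. Its probe gave 1001 and 2142 in knockouts and 1701 and 2728 in controls, so that the groups overlapped, with a log2 fold change of -0.56 ± 0.24 (adjusted p = 0.381). Within the arrays numbered 1 the knockout was lower by 0.77 on the log2 scale and within those numbered 2 by 0.35. Without knockout 2 the fold change was -1.11, and without knockout 1 it was -0.01. At this age the replicate number went with the sex markers. With the number as a replicate block limma called Igf2 (adjusted p = 0.0132), but the numbers were not taken as pairs here. Grb10, with 2505 and 2537 in knockouts and 2314 and 2763 in controls, and Mest, with 179.8 and 183 in knockouts and 224 and 162 in controls, overlapped. The median fold change of the 4 genes tested was -0.31, against 0.02 over all genes tested. Dlk1, Meg3, Plagl1 and Usp29 lay at or below the median of all probes at 6 weeks, where no difference could be measured.

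At P0 none of the 5 genes tested was called, and none had an unadjusted p under 0.05. limma called 0 of 11779 genes in this comparison (0%), with 496 at an unadjusted p under 0.05. Cdkn1c gave 13138 and 10113 in knockouts and 12916 and 13302 in controls, with a log2 fold change of -0.19 ± 0.14 (adjusted p = 1.00 by limma). The fold change of Cdkn1c at 6 weeks minus that at P0 was -0.69 ± 0.23 (adjusted p = 0.370), so that a difference between the ages was not called, in a test that called 0.256% of 10956 genes and none of the 4 genes that could be tested (1 at an unadjusted p under 0.05). Mest had no call at P0. Its probes gave 16358 and 28162 in knockouts and 16594 and 17376 in controls on the brightest (ILMN_2846904), 9691 and 10794 against 8051 and 8546 on the next (ILMN_2642417), and 4169 and 4346 against 3371 and 3792 on the last (ILMN_2642418). The high value of knockout 2 on the first probe was not matched on the others, and its fold change of 0.34 ± 0.26 had an adjusted p of 1.00 in limma. On both other Mest probes the knockouts were above the controls without overlap. By brightest probes, Dlk1 was the 1 tested gene whose arrays separated, with higher knockouts as for 14.6% of all genes tested. It gave 18373 and 18682 in knockouts and 15858 and 17572 in controls. The second Dlk1 probe gave 5780.1 and 5699.7 in knockouts and 4461 and 5400.4 in controls. The fold change of Dlk1 was 0.15 ± 0.29 (adjusted p = 1.00 by limma). Sex markers were not balanced at P0: both knockouts and 1 control (Dlk1 at 17572) had Eif2s3y above Xist, and the other control had Xist above Eif2s3y. Among the arrays with Eif2s3y above Xist the Dlk1 difference was 0.08 on the log2 scale, and the part of sex was not tested. Summed endothelial markers (16268 to 18172 in knockouts, 15472 to 15809 in controls) and mesenchymal markers (15018 to 18167 in knockouts, 14098 to 14686 in controls) were also higher in both knockouts at P0. So were neural markers (913 to 914 in knockouts, 719 to 858 in controls). The 3 neural markers tested all had a fold change above 0, with a median of 0.02 on the log2 scale. The part of these marker sums in the Mest and Dlk1 values was not tested.

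In Nkx2.5::Cre hearts at E11.5, Cdkn1c was the 1 gene of the 6 tested whose arrays separated. It gave 23116, 23577 and 25497 in knockouts and 30817, 29478 and 31995 in controls, with every knockout below every control, as for 8.57% of all genes tested, and a log2 fold change of -0.35 ± 0.13 (adjusted p = 0.371 by limma, the 1 unadjusted p under 0.05 among the 6 genes tested). The difference was of the same size in both kinds of array by sex marker: -0.38 where Xist was above Eif2s3y and -0.38 where Eif2s3y was above Xist. Of the summed marker lists, that of 5 skeletal muscle genes also separated the groups, at 551 to 668 in knockouts and 795 to 1122 in controls, with 2 of the 5 above the median of all probes, and its part in the Cdkn1c value was not tested. None of the 6 genes tested was called, and 0.49% of 11827 genes were. At this age arrays of the same number in the labels deviated together, and with the number as a replicate block 489 genes in place of 58 were called. None of the 6 was among them, and Cdkn1c had an adjusted p of 0.103 in the blocked limma fit.

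Dlk1 at E11.5 with Nkx2.5::Cre was carried by 1 array. Its probe gave 3835, 3148 and 6299 in knockouts and 3605, 2944 and 3812 in controls, and the second probe repeated the high value of knockout 3 (1297, 1031 and 3184 in knockouts, 1233, 1052 and 1413 in controls). The fold change was 0.30 ± 0.27 (adjusted p = 0.848 by limma), and 0.02 without knockout 3. The summed intensity of 8 liver genes was 785 in knockout 3 and between 706 and 882 in the other arrays, so it was not high in that array. Mest, with 6969.6, 5431 and 11226 in knockouts and 7712, 8342 and 12626 in controls, was highest in the arrays numbered 3 of both genotypes, and the knockout was the lower array within all 3 pairs (fold change -0.31, adjusted p = 0.799 by limma). Igf2, Grb10 and Plagl1 had log2 fold changes of 0.07, -0.07 and 0.05.

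At E9.5 none of the 6 genes tested was called and none had an unadjusted p under 0.05 in limma, while 0.495% of 11713 genes were called. Their fold changes ranged from -0.10 for Grb10 to 0.10 for Meg3 on the log2 scale. By brightest probes, both knockouts were below both controls for Grb10 and Igf2 and above them for Meg3. Over all genes tested, both knockouts were lower for 13.8% and higher for 15.9%. Dlk1 gave 20257 and 11199 in knockouts and 16967 and 12728 in controls. The arrays numbered 1 were higher in both genotypes, and the summed intensity of the liver genes had the same order, at 4503 and 1492 in knockouts and 4428 and 2722 in controls; the part of other tissue in the Dlk1 values was not tested. The knockout difference at E11.5 minus that at E9.5 was called for none of the 5 genes tested in both, none of which had an unadjusted p under 0.05, and for 0.018% of 11101 genes. For Cdkn1c it was -0.32 ± 0.16 (adjusted p = 0.988 by limma).

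The αMHC::Cre hearts at E11.5 had chosen Usp29, so their other values are listed without a test. Cdkn1c gave 49525 and 50086 in knockouts and 46848 and 46659.6 in controls. The knockouts were the higher arrays, which held for 14.7% of all genes tested there. All 4 values lay at 79.8% to 82.3% of the highest probe of their array, near the top of the range. Igf2 gave 51333 and 52574 in knockouts and 50908 and 47064 in controls, Dlk1 8616 and 8184 against 8132 and 7788, and Mest 11999 and 11527 against 11190.4 and 11203 on its brightest probe, while its other 2 probes were lower in knockouts, at 7725 to 8715 against 8525 to 9296 and at 3253 to 3599.8 against 3607 to 3762. On the brightest probes the log2 fold changes of these genes and of Grb10 lay between 0.03 and 0.09. The other probes were at -0.12 and -0.11 for Mest, -0.04 for Dlk1, and 0.23 and 0.03 for Grb10.

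**Figure D3:**
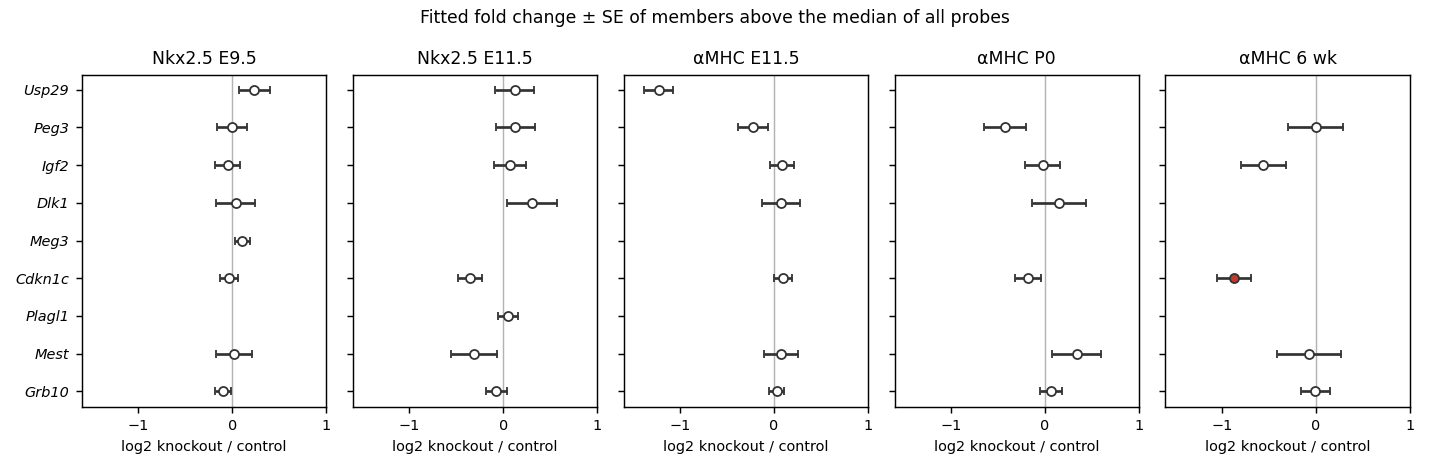
Fitted log2 fold change of knockout over control with its standard error for each imprinted gene above the median of all probes, by comparison. The filled point is the only called value among those tested, Cdkn1c at 6 weeks (-0.87); open points were not called, or were not tested (Usp29, Peg3 and all genes at E11.5 with αMHC::Cre).

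**Figure D4:**
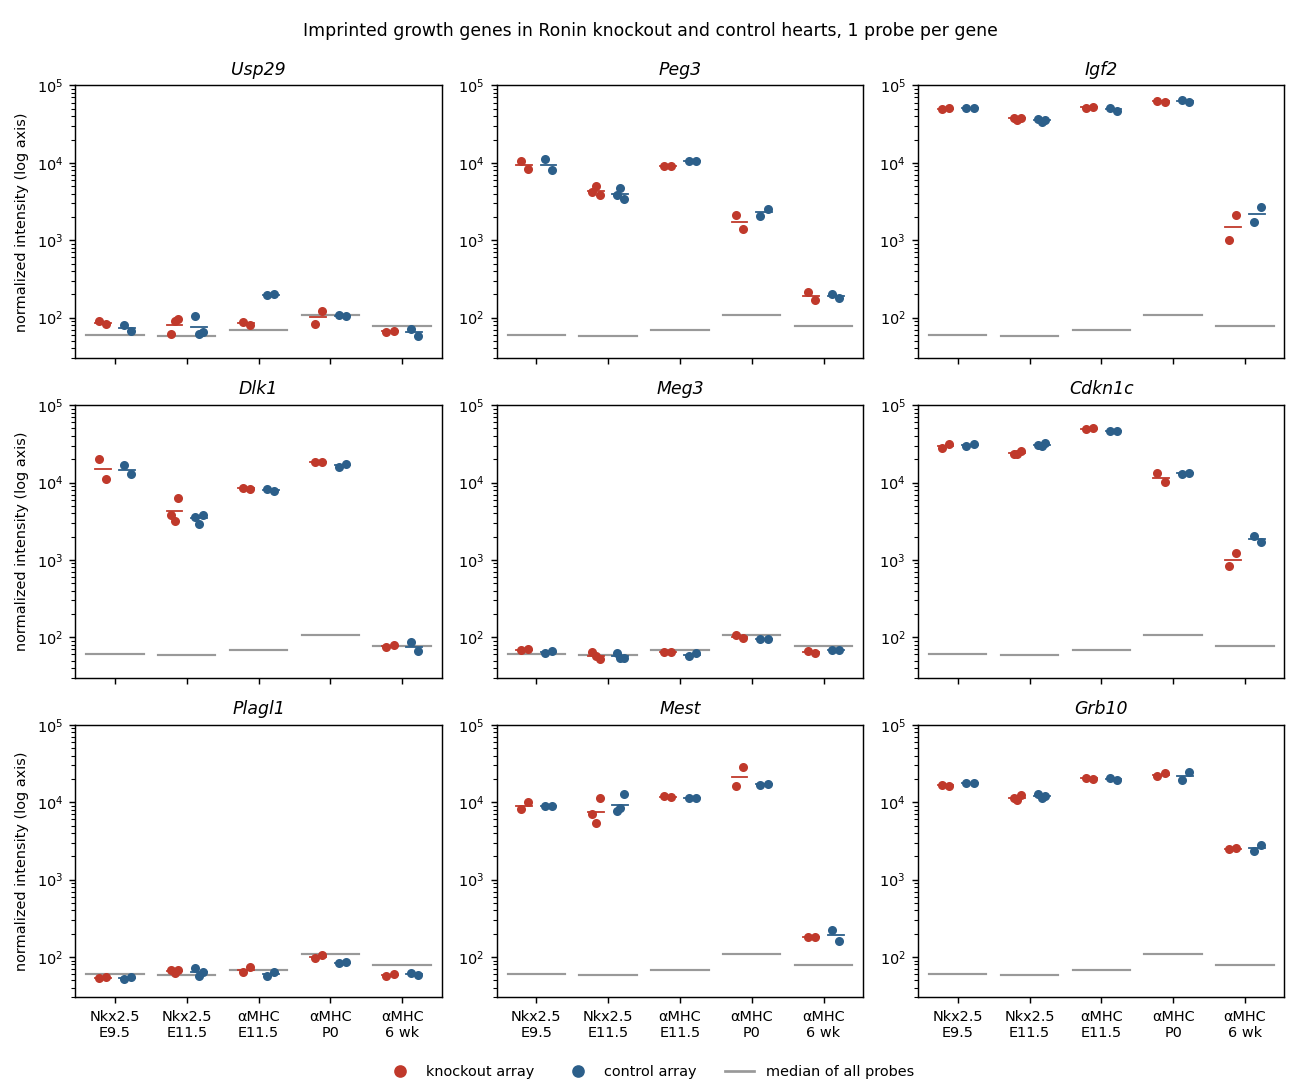
Normalized intensity on a log axis for the brightest probe of each of the 9 imprinted genes with a probe, in all 22 arrays, with knockouts left of controls and comparisons in the order of driver and age. Gray bars are the median of all probes. Igf2, Dlk1, Mest, Grb10, Peg3 and Cdkn1c fall between P0 and 6 weeks in both genotypes, while Meg3 and Plagl1 stay near the median probe at all ages.

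The levels by age were part of the choice of these genes and are given as a description. Age groups were normalized apart before deposit, so the values here are log2 intensities after quantile normalization over all 22 arrays. Between αMHC::Cre controls at 6 weeks and at P0, all 6 genes that were above the median of all probes at either age were lower, by a median of 3.57 on the log2 scale, against a median of 0.01 over 12598 genes. Each was lower by at least 2-fold, as were 9.25% of all genes, while none of the 6 and 7.41% of all genes were higher by as much. Because the fall was part of the choice, the gap to all genes partly repeats that choice and is not a result.

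Dlk1 was lower by 7.23 on the log2 scale, with 86.1 and 67.1 in the controls at 6 weeks against 15858 and 17572 at P0, and it had come down to the level of the median probe. Mest was lower by 5.68 and Igf2 by 4.32, at 1701 and 2728 against 65759 and 61937. Igf2 in the 18 embryonic and newborn arrays lay at 74.1% to 93.2% of the highest probe of each array, near the top of the range. Peg3 was lower by 2.83, Grb10 by 2.34 and Cdkn1c by 1.95 between these ages. In knockouts the same 6 genes were lower at 6 weeks than at P0 by a median of 3.71. Cdkn1c was lower by 2.58 in knockouts. The interaction given above compares this fall between the genotypes on the deposited values, not on the quantile-normalized values used here.

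Values before birth were also part of the choice. Between αMHC::Cre controls at P0 and at E11.5, Peg3 was lower by 2.70 on the log2 scale and Cdkn1c by 2.49. Usp29 was lower by 1.39, the controls at E11.5 being the 2 high arrays described above. Mest (0.07), Dlk1 (0.58) and Grb10 (-0.38) were within 2-fold, and so was Igf2 (0.00), whose probe was near the top of the range at both ages. Of the 7 genes above the median at either age 3 were lower by at least 2-fold, Usp29 being 1 of them through the control arrays on which it was chosen. In knockouts Usp29 was lower by 0.37. Over 12722 genes 8.54% were lower and 6.94% higher by as much. Between Nkx2.5::Cre controls at E11.5 and at E9.5, Dlk1 was lower by 1.52 and Peg3 by 0.69, and Cdkn1c (0.45) and Mest (0.58) were higher. Dlk1 was the 1 gene of 9 lower by at least 2-fold, with 2.86% of 12472 genes lower and 3.49% higher.

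**Figure D5:**
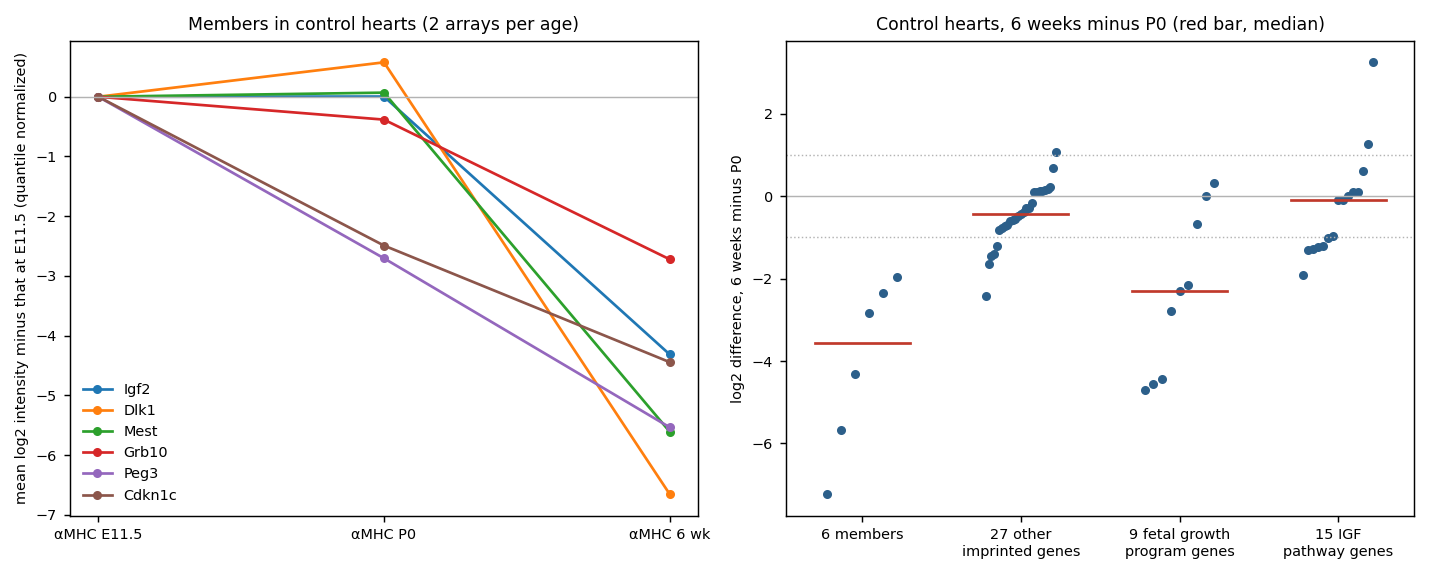
Left, mean log2 intensity of 6 imprinted genes in αMHC::Cre controls at E11.5, P0 and 6 weeks, minus that at E11.5, after quantile normalization over all arrays (2 arrays per age). Right, log2 difference between controls at 6 weeks and at P0 for each gene above the median of all probes at either age, in 4 groups of genes, with red bars at the medians (-3.57 for the 6 genes) and dotted lines at 2-fold. The 6 genes were chosen in part for this fall, so the panel is no comparison of them with the other groups.

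Meg3 and Plagl1 gave little signal in any heart. The brightest of the 3 Meg3 probes ranged from 52.5 to 107 over the arrays and that of the 3 Plagl1 probes from 52.2 to 106, and they reached percentiles 57.6 and 60.5 of the probes on an array at most. Meg3 could be tested at E9.5 and Plagl1 at E11.5 with Nkx2.5::Cre.

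Other imprinted genes were set beside these, from a list of 51 paternally or maternally expressed genes of which 44 had a probe. In the 5 knockout comparisons 28, 28, 31, 25 and 22 of them were tested, from E9.5 to 6 weeks, and limma called none in any; 3, 3, 2, 1 and 2 had an unadjusted p under 0.05. Their median fold changes on the log2 scale ranged from -0.03 to 0.09 for the paternally expressed and from -0.02 to 0.02 for the maternally expressed genes. Between controls at 6 weeks and at P0, 5 of the 27 above the median of all probes were lower by at least 2-fold and 1 was higher, with a median of -0.44. The 5 with the largest fall were Ndn (-2.42), which encodes necdin, Zdbf2 (-1.65), Osbpl5 (-1.46), which encodes an oxysterol-binding protein, Igf2r (-1.40), the receptor that clears IGF2, and Slc38a4 (-1.22), an amino acid transporter. The largest rises were those of Impact (1.08) and Peg13 (0.68), a noncoding RNA. The growth genes had been chosen in part for their decline, so their falls are not set against these.

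Of 17 genes of IGF signaling (Igf1, receptors, binding proteins and the enzymes that process them), 14 were tested at 6 weeks and 1 was called. Over all genes tested at this age, 1.77% of 11708 were called. Igfals, which encodes the acid-labile subunit that stabilizes circulating IGF complexes, fell in knockouts by 1.25 ± 0.25 on the log2 scale (SE, adjusted p = 0.0111 by limma). When this age was fitted alone no gene was called, Igfals included, and the number of genes called at this age depended on single arrays. Igfals was higher at 6 weeks than at P0 by 3.25 in controls. Igf1r, the receptor of IGF1 and IGF2, had a log2 fold change of 0.99 ± 0.33 at 6 weeks without passing (adjusted p = 0.173 by limma). Of the 13 to 15 of them tested in each of the other 4 comparisons limma called none, and Stc2 at E11.5 with Nkx2.5::Cre and Insr at P0 had an unadjusted p under 0.05. Of 16 genes of a fetal growth program (IGF2 mRNA-binding proteins, Lin28 and Hmga family genes and cell-cycle genes), 12 had a probe and 6 to 11 were tested per comparison. limma called none of those, and Ccnd1 and Ccnd2 at 6 weeks had an unadjusted p under 0.05. Between controls at 6 weeks and at P0, 6 of 9 fetal growth genes were lower by at least 2-fold (median -2.31), as were 6 of 15 IGF pathway genes (median -0.09), of which 2 were higher.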

How the data were processed

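Heart RNA of 22 samples in 10 groups was measured on Illumina arrays. The authors deposited 1 table of linear, normalized intensity values of 45281 probes, in which the arrays are alike within each of the 5 comparisons and differ between them. The methods name cubic spline and quantile normalization for different analyses, and which of these made the deposited table, with the software versions, is not given in the sources used here. A second table, of unnormalized values, has 22 columns that match no sample label and was not used.

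Gene symbols came from the platform annotation: 34885 probes name 1 gene, 18 name several and 10378 name none, which left 19057 genes. Values were taken to log2 and fitted with limma 3.58.1 in R 4.3.3 (statmod 1.5.0) in a single model of 10 groups with array weights (0.533 to 1.90) and 12 residual degrees of freedom. A gene was represented by its brightest probe on average over all arrays, and entered the test of a comparison if the mean of that probe over the arrays compared exceeded that of the median probe. Calls required a Benjamini-Hochberg adjusted p under 0.05 over all genes tested. Each comparison has its own controls. The deposited intensities carry no bead counts here, so the precision is limited by the number of arrays, 2 or 3 per group. The steps were tested on simulated data.

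The imprinted genes and the gene lists were chosen with earlier results of these data known. Genes named in the text are the imprinted growth genes with all their probes, every called gene of the other lists, the 5 other imprinted genes with the largest fall and the 2 with the largest rise between P0 and 6 weeks in controls, the 5 genes most like Usp29, and Xist, Eif2s3y and Thap11. Igf1r, Stc2, Insr, Ccnd1 and Ccnd2 were named after their values were seen. Promoter windows are from RefSeq on GRCm38.p6.

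Replicate numbers in the labels paired the arrays at E11.5 with Nkx2.5::Cre, where deviations from the group means correlated for all 3 numbers (0.44, 0.61 and 0.52). The other comparisons have 2 numbers each, with correlations of 0.36 at E9.5 and of 0.02, 0.22 and 0.35 at the 3 ages with αMHC::Cre, and there the numbers were not taken as pairs. Alternatives were median scaling, quantile normalization over all arrays, a separate fit for each comparison, array weights left out, dim probes kept, averaging over the probes of a gene, each probe as its own row, the replicate block and leaving out each array.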

Additional observations from a re-analysis of the deposited data

Results flagged for a closer look

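Cdkn1c had knockout arrays on opposite sides of their controls with the different drivers at E11.5. With Nkx2.5::Cre all 3 knockouts were below all 3 controls (log2 fold change -0.35, not called), as for 8.57% of genes tested. With αMHC::Cre both knockouts were above both controls (0.09, not tested), as for 14.7% of genes tested. Fold changes of opposite direction on every array flagged the gene, and the gap between them was 0.45 on the log2 scale. The αMHC::Cre values lay at 79.8% to 82.3% of the highest probe of their array. The difference was not tested, and in the αMHC::Cre hearts of this age genotype and sex cannot be told apart. Groups of 4 or more arrays, in which a single outlying array could be sought, do not occur here.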

How the results depend on the processing

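Of 34 knockout fold changes of the imprinted genes, 407 of 422 values under the alternatives moved by less than the replicate spread and kept their call, 10 moved by more, 3 lost a call and 2 gained one, and no called value changed sign. Signs changed 27 times in 15 uncalled fold changes, the largest of them 0.34 in size. The number of these genes called at 6 weeks was 1, but it was 0 with that age fitted alone, 2 with the replicate block (Cdkn1c, adjusted p = 0.00754, and Igf2, 0.0132) and 0 to 2 with an array left out, and the interaction of 6 weeks minus P0 called 0 to 2. Over all genes at 6 weeks 207 were called, against 0 alone, 602 with equal array weights, 527 with the replicate block and 9 to 751 with an array left out. The replicate block gave 79 calls at E9.5, 11 at E11.5 with αMHC::Cre, 1 at P0 and 489 at E11.5 with Nkx2.5::Cre, and it changed no other call of these genes. The median age difference of -3.57 was -4.24 on the deposited values and -3.13 with the mean of a gene's probes, and -3.69 to -3.46 with an array left out. The lowest of the 5 correlations with Usp29, 0.58, was 0.36 with values centered within groups and 0.35 without the 4 αMHC::Cre arrays at E11.5, an alternative chosen after seeing the data. The 2 or 3 arrays per group limit every comparison, and probes near the median of all probes cannot show a fall.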
